A study of Mus musculus with 8 samples.

Results

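The 40 genes described here are expressed by macrophages and other myeloid cells, and they were followed in RNA from the mouse mandibular arch, the embryonic tissue of the lower jaw. A gene was taken from the list of 40 symbols, and where several probe sets carried its symbol alone the brightest one over all arrays stood for it. All 40 were measured, out of 18194 genes. The mutant arches came from Wnt1-Cre;Alk5 fl/fl embryos, in which Cre under the Wnt1 promoter inactivates the floxed Alk5 gene (Tgfbr1, a type I receptor for TGF-beta) in cranial neural crest, and the control arches came from Alk5 fl/fl embryos, for which the labels give no Cre. Both groups carried the floxed alleles on a C57BL/6J background, were collected at embryonic day 11.5 with sex not determined, and had 4 arrays each. Carrying Cre and losing Alk5 go together in these groups and cannot be told apart. The labels do not say whether each array came from a separate embryo or litter, so the p-values cover the spread among these samples, which may be technical.

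Macrophages of the embryo descend from blood progenitors that first arise in the yolk sac, not from neural crest, and they settle in tissues around the time the arches grow. Their identity depends on the transcription factor PU.1 and on signalling through the CSF1 receptor. They take up dying cells and other particles through several kinds of surface receptor, and they break down the cargo in lysosomes rich in cathepsins. Some of the 40 genes are shared with all leukocytes, some mark resident macrophages, and a few are linked to macrophage activation.

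Of the 40 genes, 13 rose in mutant arches, 0 fell and 27 did not pass (limma, adjusted p under 0.05 over all 18194 genes). Over all genes 2.14% passed, 0.835% upward and 1.31% downward. At an unadjusted p under 0.05, 23 of the 40 were higher and 0 lower, against 4.52% and 8.95% of all genes. The rises ran from 1.53-fold to 3.40-fold, led by the arginase gene Arg1 and the perforin-like gene Mpeg1. In 19 of the 40 every mutant array read above every control array, and in 0 every mutant array read below every control array. Over all genes those shares were 3.27% and 7.02%, together 10.3%. A log2 fold change above 0, mutant minus control throughout, was seen in 34 of the 40, against 48% of all genes. The median was 0.37 over the 40 and -0.01 over all genes. The 40 genes were chosen with earlier results of these data known, so their excess over all genes is not independent support. In RNA of a whole tissue, more cells of a type and more RNA per cell cannot be told apart.

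**Figure D1:**
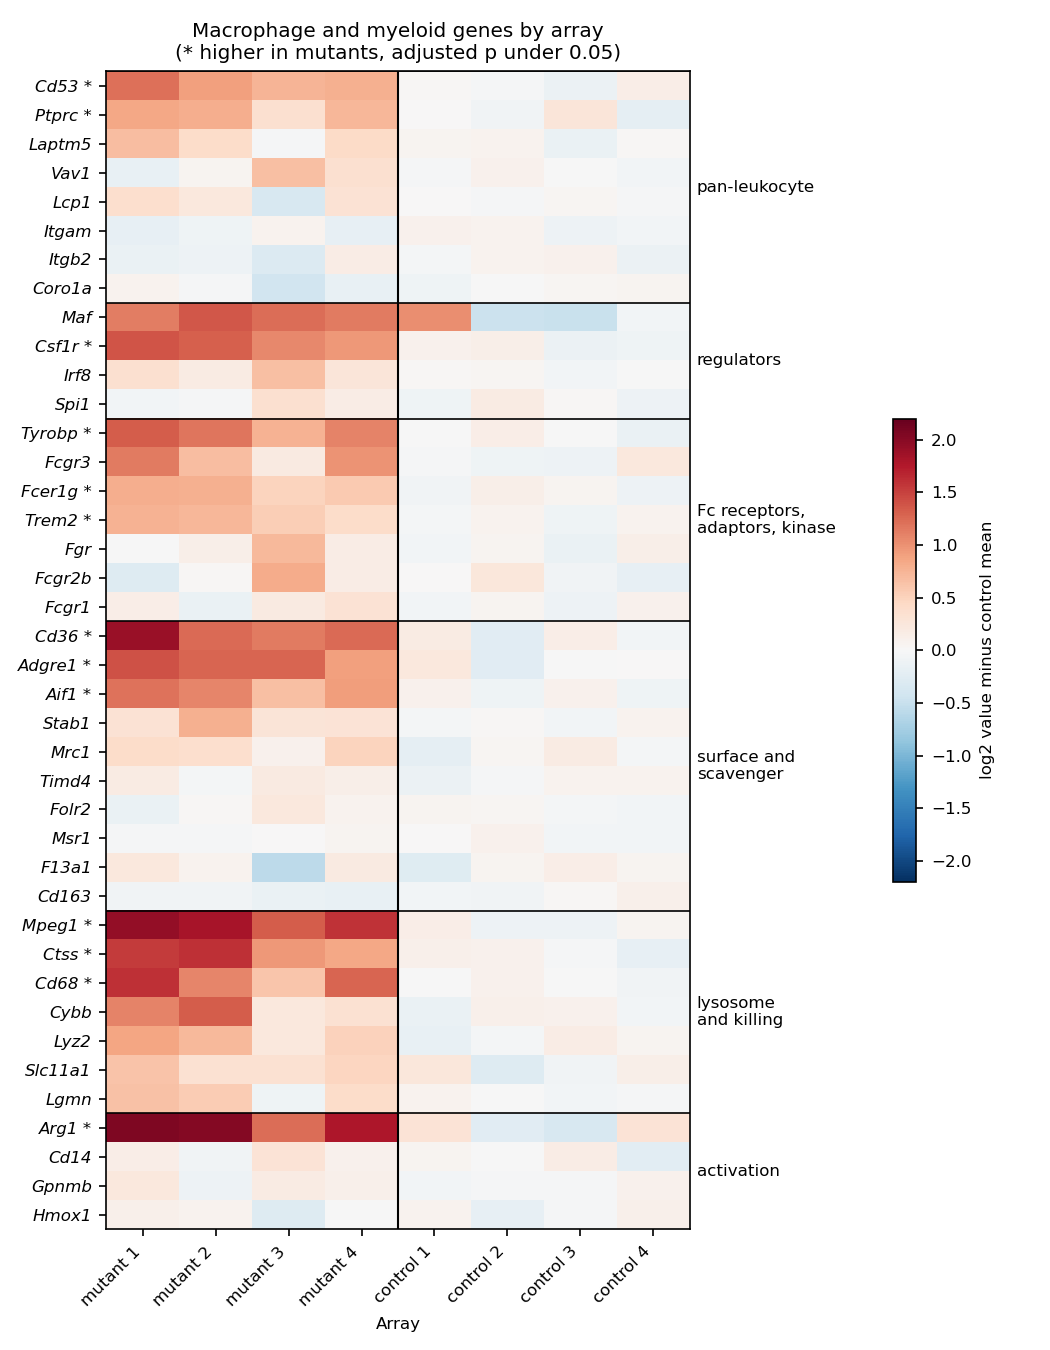
Heat map of each gene's log2 value on each array minus its mean over the 4 control arrays, with mutants on the left, controls on the right, and genes grouped by role; red is above the control mean and blue below it. The 13 starred genes are red on all 4 mutant arrays, while most of the other rows are pale, and Maf is also red on control 1.

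The arrays themselves need a word before the single genes. The median log2 value was 6.42 on mutant 3 and between 6.28 and 6.32 on the other arrays. Mutant 3 also had the narrowest spread, with an SD over probe sets of 2.42, against 2.52 to 2.56 on the others. Mutant 3 was the lowest mutant for 9 of the 13 genes that rose and the highest for none of them, whereas mutant 1 was the highest for 12 of the 13. Without mutant 3, 19 of the 40 rose, as did 1.8% of all genes. Over all genes mutant 3 was the lowest mutant for 51.2% and the highest for 32.1%, and mutant 1 the highest for 24.2%. The mean over the 13 genes was 8.28, 8.11, 7.75 and 7.90 in mutants 1 to 4, against 6.97, 6.86, 6.87 and 6.87 in controls 1 to 4. Tgfbr1 read 12.97 to 12.99 in mutants, against 12.71 to 12.90 in controls (difference 0.19, adjusted p = 0.232 in limma). By an exact two-sided permutation over the 70 possible labelings its p was 0.0286, the lowest attainable. Whether its probe set lies outside the floxed part is not known here, so it does not check the labels. The arch genes Dlx5 and Hand2, chosen after their values were seen, were bright in both groups. Dlx5 read 11.07 to 11.22 in mutants and 10.85 to 11.09 in controls. Hand2 read 12.04 to 12.16 in mutants and 12.17 to 12.54 in controls. Hand2 was among the 5 of 14 listed arch genes in which every mutant array read below every control array, against 7.02% of all genes.

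Among 8 genes shared by leukocytes, only Cd53 and Ptprc rose and 0 fell. The median over the 8 was 0.18. Cd53, a tetraspanin of leukocyte membranes, read 8.08, 7.77, 7.62 and 7.65 in mutants 1 to 4, against 6.89, 6.84, 6.73 and 7.01 in controls 1 to 4. Its 2 groups did not overlap, and it rose by 0.91 ± 0.111 (log2 fold change ± SE, adjusted p = 0.00483). Ptprc, which encodes the leukocyte phosphatase CD45, read 6.88, 6.83, 6.38 and 6.76 in mutants 1 to 4, against 6.04, 5.94, 6.30 and 5.84 in controls 1 to 4. Mutant 3 and control 3 lay closest to each other, and the rise was 0.68 ± 0.133 (adjusted p = 0.0353). That call was lost without mutant 1, 2 or 4 or control 1, 2 or 4, with quantile normalization, with median centring and with the replicate number as a block (adjusted p up to 0.132 over the alternatives). Averaged over their probe sets, Cd53 changed by 0.44 and Ptprc by 0.39.

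The other leukocyte genes gave small differences, and 3 of them were bright. Coro1a, an actin regulator of leukocytes, read 8.89, 8.79, 8.39 and 8.64 in mutants 1 to 4, against 8.71, 8.80, 8.85 and 8.87 in controls 1 to 4. The groups overlapped, and its log2 fold change of -0.13 had a 95% interval of -0.38 to 0.11. Lcp1, an actin-bundling protein gene, differed by 0.14 (adjusted p = 0.737), and Laptm5, a lysosomal membrane protein gene of blood cells, by 0.37 (adjusted p = 0.261). Without mutant 3 both passed, Lcp1 at 0.30 (adjusted p = 0.0246) and Laptm5 at 0.50 (adjusted p = 0.0270). Over 16 alternatives Lcp1 passed in 2 and Laptm5 in 3. Laptm5 read 8.34 to 9.04 in mutants, against 8.21 to 8.43 in controls, and Lcp1 7.90 to 8.62 in mutants, against 8.23 to 8.29 in controls, with mutant 3 the lowest mutant for both. On the most variable Laptm5 probe set the difference was 0.11 (adjusted p = 0.874). The second brightest set differed by 0.37 without overlap (limma adjusted p = 0.0796 over all probe sets), and the remaining ones by 0.25 and 0.20. The exchange-factor gene Vav1 differed by 0.22, at 6.32 to 7.15 in mutants, against 6.43 to 6.58 in controls, and mutant 3 was its highest array. The integrin chain gene Itgb2 differed by -0.10 and Itgam, which encodes CD11b, by -0.10. Itgam was near the bottom of the array's range, at 3.91 to 4.17 in mutants and 3.99 to 4.20 in controls.

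Of 4 genes that direct the lineage, Csf1r alone passed. Csf1r encodes the receptor for CSF1 and IL-34 on which most macrophages depend, and its brightest probe set read 10.72, 10.66, 10.40 and 10.28 in mutants 1 to 4, against 9.43, 9.47, 9.21 and 9.24 in controls 1 to 4. Every mutant array was above every control array, a rise of 1.18 ± 0.114 (adjusted p = 0.00195). The 2 dimmer Csf1r probe sets also separated the groups, by 0.73 and 0.30, and averaged over probe sets the change was 0.74. The genes of its ligands did not pass. Csf1 was at 7.11 ± 0.0696 in mutants and 7.07 ± 0.0903 in controls, and Il34 at 5.79 ± 0.269 in mutants and 5.79 ± 0.133 in controls (SD, n = 4 each). The 95% interval of the log2 fold change was -0.13 to 0.20 for Csf1 and -0.29 to 0.30 for Il34.

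Maf, a bZIP factor of resident macrophages that other embryonic tissues also use, read 10.53, 10.77, 10.63 and 10.54 in mutants 1 to 4, against 10.42, 8.93, 8.91 and 9.34 in controls 1 to 4. Control 1 lay far above the other controls and just below the mutants, and the difference of 1.22 ± 0.291 did not pass (adjusted p = 0.0721). Without control 1 it was 1.56 (adjusted p = 0.00288), and averaged over its probe sets 0.65 (adjusted p = 0.0803). Spi1, which encodes PU.1, read 6.09, 6.12, 6.51 and 6.32 in mutants 1 to 4, against 6.06, 6.35, 6.18 and 6.05 in controls 1 to 4. The groups overlapped, and the 95% interval of its log2 fold change was -0.15 to 0.35. Irf8, a partner of PU.1 in myeloid cells, read 6.54 to 7.02 in mutants, against 6.29 to 6.41 in controls. It differed by 0.36 with no overlap between groups (adjusted p = 0.123), and passed when its probe sets were averaged (adjusted p = 0.0148).

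PU.1 binds purine-rich letters, so the promoters of the 40 genes were searched for GAGGAAGT, or ACTTCCTC on the other strand, in RefSeq windows (GRCm38.p6) from 250 bases before to 50 after the gene start. Of 30 genes with a window, 4 held the letters, against 3.69% of all 27025 symbols. They were Cd53 and Ctss, which rose, and Vav1 and F13a1, which did not pass. The shorter GAGGAA, which lies within the longer motif, was found in 17 of the 30, against 31.3% of all symbols. By call, it was in 6 of 9 genes that rose and in 11 of 21 that did not pass. A match is a description of the letters, not of binding. The 4 windows are printed 5′ to 3′ along the gene, with the match in capitals, because the same letters stood in genes that rose and in genes that did not pass.
Cd53 (chr3:106790100-106790399, minus strand): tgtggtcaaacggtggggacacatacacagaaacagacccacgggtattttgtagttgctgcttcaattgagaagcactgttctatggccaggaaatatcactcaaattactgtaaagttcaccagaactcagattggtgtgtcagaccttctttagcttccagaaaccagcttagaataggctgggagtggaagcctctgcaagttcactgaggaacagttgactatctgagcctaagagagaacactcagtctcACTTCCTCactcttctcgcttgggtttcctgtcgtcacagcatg
Ctss (chr3:95526536-95526835, plus strand): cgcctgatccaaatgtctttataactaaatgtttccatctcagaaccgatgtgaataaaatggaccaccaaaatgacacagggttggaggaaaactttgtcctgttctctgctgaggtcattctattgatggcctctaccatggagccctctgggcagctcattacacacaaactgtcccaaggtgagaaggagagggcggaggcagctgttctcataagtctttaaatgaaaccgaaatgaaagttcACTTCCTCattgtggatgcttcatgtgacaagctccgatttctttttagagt
Vav1 (chr17:57278850-57279149, plus strand): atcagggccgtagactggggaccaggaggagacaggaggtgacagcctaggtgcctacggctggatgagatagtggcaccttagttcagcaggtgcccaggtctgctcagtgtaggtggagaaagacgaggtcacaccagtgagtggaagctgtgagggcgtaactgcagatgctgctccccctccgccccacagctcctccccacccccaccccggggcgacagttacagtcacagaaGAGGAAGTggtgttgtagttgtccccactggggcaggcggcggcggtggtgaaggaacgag
F13a1 (chr13:37049164-37049463, minus strand): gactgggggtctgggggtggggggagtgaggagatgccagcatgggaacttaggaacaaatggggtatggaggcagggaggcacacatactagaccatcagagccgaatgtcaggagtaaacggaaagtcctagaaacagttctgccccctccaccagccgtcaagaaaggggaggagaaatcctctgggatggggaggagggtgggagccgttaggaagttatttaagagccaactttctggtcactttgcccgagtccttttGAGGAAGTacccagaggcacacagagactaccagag

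Of 7 genes for Fc receptors and the signalling adaptors beside them, Tyrobp, Fcer1g and Trem2 rose and 0 fell, at a median of 0.61. Tyrobp encodes DAP12, an adaptor with an activating tyrosine motif, and read 9.19, 9.02, 8.61 and 8.94 in mutants 1 to 4, against 7.85, 7.996, 7.84 and 7.71 in controls 1 to 4. Fcer1g, the common gamma chain of activating Fc receptors, read 8.49, 8.46, 8.17 and 8.27 in mutants 1 to 4, against 7.61, 7.81, 7.76 and 7.58 in controls 1 to 4. Both separated the groups without overlap. Tyrobp rose by 1.09 ± 0.122 (adjusted p = 0.00373) and Fcer1g by 0.66 ± 0.0954 (adjusted p = 0.0105). Trem2, a lipid-sensing receptor that signals through DAP12, read 7.30, 7.26, 7.08 and 6.93 in mutants 1 to 4, against 6.48, 6.60, 6.43 and 6.60 in controls 1 to 4. It rose by 0.61 ± 0.0959 (adjusted p = 0.0149), although the call was lost without control 1, 2 or 3 and with averaged probe sets, which gave 0.37 (adjusted p up to 0.0691).

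The Fc receptor genes themselves did not pass on their brightest probe sets. Fcgr3, an activating receptor for IgG, read 8.44, 7.98, 7.49 and 8.29 in mutants 1 to 4, against 7.27, 7.20, 7.19 and 7.54 in controls 1 to 4. Mutant 3 lay just below the highest control, and the difference was 0.75 ± 0.188 (adjusted p = 0.0865), or 0.94 without mutant 3 (adjusted p = 0.0116). The inhibitory receptor gene Fcgr2b differed by 0.18, with mutant 3 its highest array at 9.26, and the Src-family kinase gene Fgr by 0.25. Fcgr2b read 8.15 to 9.26 in mutants, against 8.26 to 8.69 in controls, and Fgr 6.53 to 7.24 in mutants, against 6.38 to 6.67 in controls, with overlap in both. Fcgr1, the high-affinity IgG receptor gene, differed between its probe sets. Its brightest probe set read 6.70, 6.42, 6.77 and 6.89 in mutants 1 to 4, against 6.51, 6.63, 6.46 and 6.67 in controls 1 to 4, and the groups overlapped. The next one, nearly as bright, read 7.71, 6.97, 6.76 and 7.22 in mutants 1 to 4, against 6.03, 5.85, 6.04 and 6.34 in controls 1 to 4, without overlap. Fitted over all 45101 probe sets, of which 0.845% passed and 0.355% rose, that second set rose by 1.10 ± 0.188 (adjusted p = 0.0320).

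**Figure D2:**
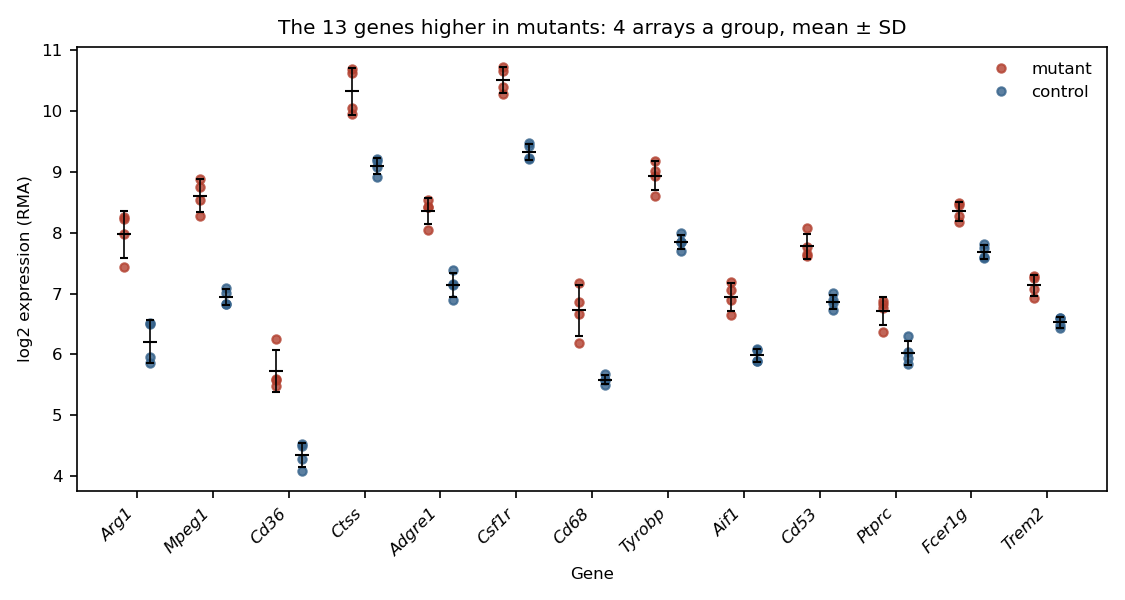
Log2 expression of the 13 genes that rose, with each array as a point, mutants left of controls for each gene, and bars for mean ± SD (n = 4 each). No mutant point lies at or below a control point of the same gene, and the gap is narrowest for Ptprc, from 6.38 in the lowest mutant to 6.30 in the highest control.

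Among 10 surface and scavenger genes of resident macrophages, Adgre1, Aif1 and Cd36 rose and 0 fell, at a median of 0.23. Adgre1, which encodes the F4/80 antigen, read 8.54, 8.42, 8.42 and 8.04 in mutants 1 to 4, against 7.38, 6.90, 7.13 and 7.15 in controls 1 to 4. Aif1, the calcium-binding protein IBA1, read 7.18, 7.07, 6.65 and 6.90 in mutants 1 to 4, against 6.08, 5.89, 6.08 and 5.90 in controls 1 to 4. Both separated the groups, with rises of 1.21 ± 0.13 for Adgre1 (adjusted p = 0.0031) and 0.96 ± 0.116 for Aif1 (adjusted p = 0.00482). Cd36 encodes a fatty acid and lipoprotein receptor that platelets and endothelium also carry. It was dim, at 6.25, 5.58, 5.48 and 5.59 in mutants 1 to 4, against 4.52, 4.09, 4.49 and 4.28 in controls 1 to 4, with mutant 1 apart from the other mutants. It rose by 1.38 ± 0.17 (adjusted p = 0.00516), and its second probe set by 1.23 ± 0.189 over all probe sets (adjusted p = 0.0216).

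The remaining surface genes, several of them used as markers of settled tissue macrophages, did not pass. Stab1, a scavenger receptor of macrophages and some endothelium, read 7.51 to 8.01 in mutants, against 7.16 to 7.31 in controls. It differed by 0.42 ± 0.115 without overlap (adjusted p = 0.113). Mrc1, the mannose receptor CD206, read 7.55, 7.51, 7.24 and 7.64 in mutants 1 to 4, against 6.95, 7.19, 7.32 and 7.10 in controls 1 to 4. Its groups overlapped through mutant 3 and control 3, and the difference was 0.35 ± 0.109 (adjusted p = 0.182). Mrc1 passed without mutant 3 at 0.43 (adjusted p = 0.0454), and in 2 of its 15 alternatives in all. Folr2 read 6.13 to 6.51 in mutants, against 6.22 to 6.35 in controls, Msr1 7.004 to 7.10 in mutants, against 6.97 to 7.14 in controls, and Timd4 4.61 to 4.86 in mutants, against 4.53 to 4.75 in controls, with overlap in each. The folate receptor gene Folr2 had a 95% interval of -0.15 to 0.25, the scavenger receptor gene Msr1 of -0.15 to 0.15, and Timd4, a receptor for phosphatidylserine, of -0.07 to 0.30. The dimmer Msr1 probe sets differed by 0.23, 0.21 and -0.04, the one at 0.21 without overlap, and did not pass over all probe sets. F13a1, the coagulation factor XIII A chain of macrophages and platelets, was as bright as many genes that rose and read 8.14, 7.99, 7.33 and 8.11 in mutants 1 to 4, against 7.64, 7.98, 8.05 and 7.97 in controls 1 to 4. Its interval was -0.41 to 0.38. Cd163, the haemoglobin scavenger receptor gene, lay at 3.45 to 3.54 in mutants and 3.53 to 3.73 in controls, near the lowest levels on the arrays.

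All 7 lysosomal and killing genes had a log2 fold change above 0, with a median of 0.75, and 3 of them passed. Mpeg1, a pore-forming protein of the phagosome, read 8.88, 8.76, 8.28 and 8.53 in mutants 1 to 4, against 7.09, 6.83, 6.84 and 7.004 in controls 1 to 4. The lowest mutant was more than 1 log2 unit above the highest control, and with a rise of 1.67 ± 0.13 (3.19-fold, adjusted p = 0.000821) it ranked 5 by p among all 18194 genes. Ctss, the protease cathepsin S, read 10.63, 10.70, 10.05 and 9.95 in mutants 1 to 4, against 9.21, 9.19, 9.08 and 8.92 in controls 1 to 4. Cd68, a lysosomal glycoprotein used as a macrophage marker, read 7.18, 6.66, 6.19 and 6.87 in mutants 1 to 4, against 5.57, 5.67, 5.58 and 5.50 in controls 1 to 4. Ctss rose by 1.23 ± 0.172 (adjusted p = 0.00899) and Cd68 by 1.14 ± 0.178 (adjusted p = 0.0149). The Cd68 call was lost without mutant 4 or control 2 or 3 (adjusted p up to 0.0596).

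The other 4 lysosomal and killing genes passed an unadjusted p of 0.05 and missed the adjusted threshold. Lyz2, the lysozyme of myeloid cells, read 8.79, 8.64, 8.16 and 8.44 in mutants 1 to 4, against 7.76, 7.88, 8.09 and 7.98 in controls 1 to 4. There was no overlap, and the difference was 0.58 ± 0.135 (adjusted p = 0.0669), or 0.70 without mutant 3 (adjusted p = 0.0157). Cybb, the membrane subunit of the phagocyte oxidase, was high in 2 mutants, at 6.91 and 7.16, and near the controls in the others, at 6.06 and 6.16, against 5.67 to 5.94 in controls (difference 0.75 ± 0.229, adjusted p = 0.164). Averaged over probe sets Cybb differed by 0.29 (adjusted p = 0.108), its 2 dimmer sets giving 0.06 and 0.07. Slc11a1, a metal transporter of the phagosome, differed by 0.44 ± 0.122 (adjusted p = 0.12), and Lgmn, the protease legumain, by 0.38 ± 0.144 (adjusted p = 0.281). Slc11a1 read 5.99 to 6.28 in mutants, against 5.37 to 5.91 in controls, without overlap. Lgmn read 8.80 to 9.53 in mutants, against 8.84 to 8.98 in controls, where mutant 3 lay below the highest control. It passed without mutant 3, at 0.53 (adjusted p = 0.0107), and in 3 of its 16 alternatives in all.

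Of 4 genes tied to macrophage activation, Arg1 alone rose. Arg1 encodes arginase, which splits arginine into ornithine and urea, is abundant in liver and is induced in alternatively activated macrophages. It read 8.26, 8.23, 7.43 and 7.99 in mutants 1 to 4, against 6.50, 5.96, 5.86 and 6.52 in controls 1 to 4. The groups lay clearly apart, and the rise of 1.77 ± 0.213 (3.40-fold, adjusted p = 0.00482) was the largest of the 40. Hmox1, a haem-degrading enzyme induced by oxidative stress, read 8.28, 8.24, 7.88 and 8.16 in mutants 1 to 4, against 8.24, 7.99, 8.15 and 8.28 in controls 1 to 4, with overlap and a 95% interval of -0.26 to 0.21. The lipopolysaccharide co-receptor gene Cd14 had an interval of -0.13 to 0.36 and the glycoprotein gene Gpnmb, found in lipid-laden macrophages, of -0.10 to 0.30. Cd14 read 6.33 to 6.71 in mutants, against 6.19 to 6.58 in controls, and Gpnmb 5.82 to 6.16 in mutants, against 5.88 to 6.03 in controls, with overlap in both.

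**Figure D3:**
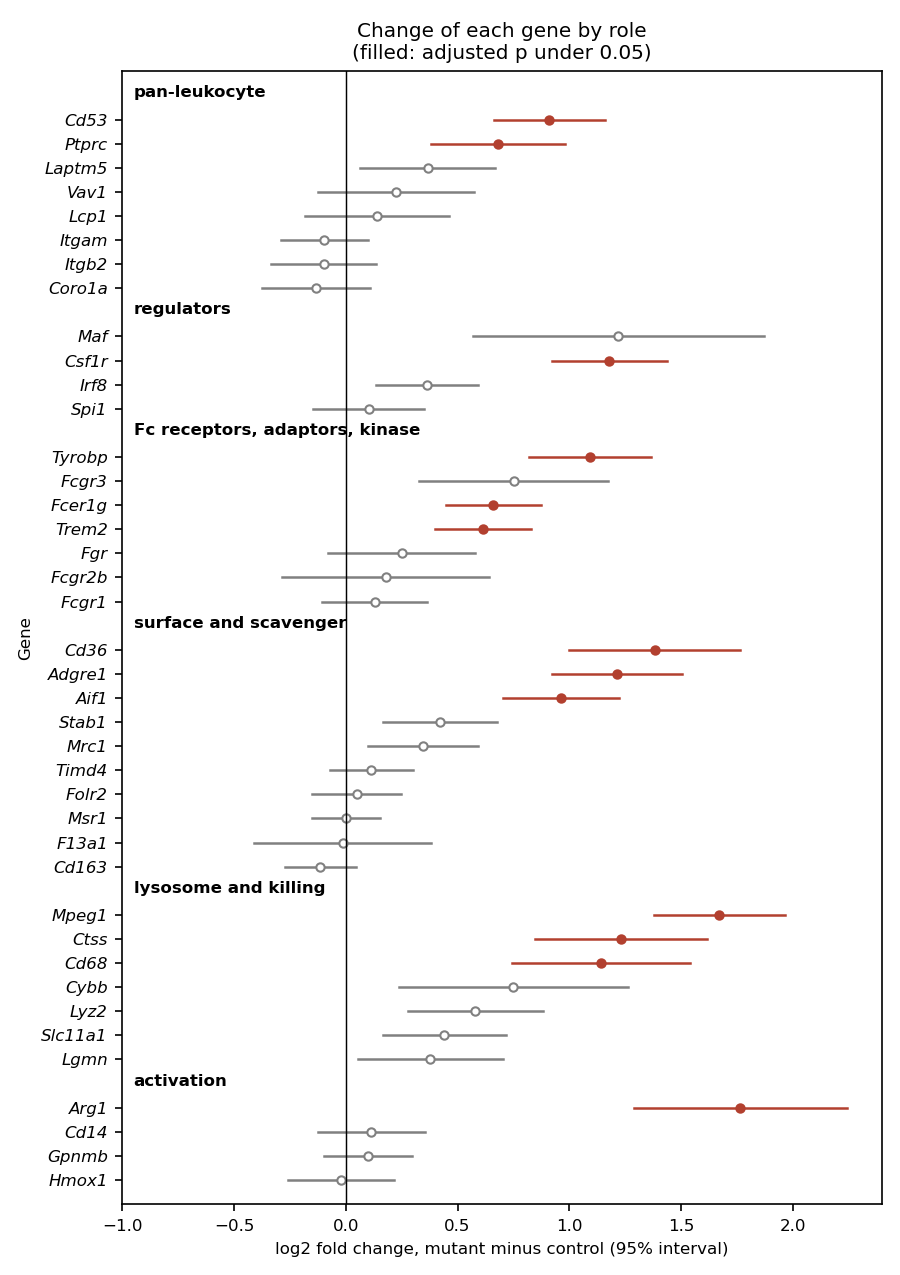
Log2 fold change, mutant minus control, of each of the 40 genes with its 95% interval, grouped by role; filled red points passed the adjusted threshold. Each role holds genes that passed and genes that did not, and Maf has the widest interval, 0.57 to 1.87.

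The size of the rise varied from gene to gene. Each gene was set against Csf1r within each array, and the difference between its change and that of Csf1r was fitted over all other genes. Csf1r was itself among the largest changes, and 99.7% of all genes differed from it, 99.6% by changing less. Of the other 39 genes here 29 changed less, a smaller share than the 99.6% of all genes. For 8 of the 39 the change was not told apart from that of Csf1r. The genes were chosen with earlier results of these data known, so this difference from all genes is not independent support. A larger change than that of Csf1r was fitted for 2 of the 39, against 0.104% of all genes. Mpeg1 changed by 0.49 ± 0.181 more than Csf1r (adjusted p = 0.00643; p = 0.0286 by an exact two-sided permutation, n = 4 each), and Arg1 by 0.59 ± 0.181 (adjusted p = 0.00119; p = 0.0857 by the same exact permutation, with overlapping groups). With 99.7% of all genes past the threshold, the adjustment hardly raises these p-values. The fit gave every gene the same SE, pooled over all genes and not its own. It also rests on the brightest Csf1r probe set: set against the second, 8 of the 39 were above and 22 below, with 0.269% of all genes above. Set against the third, 13 were above and 6 below, with 0.649% of all genes above, both comparisons having been added after the data were seen.

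**Figure D4:**
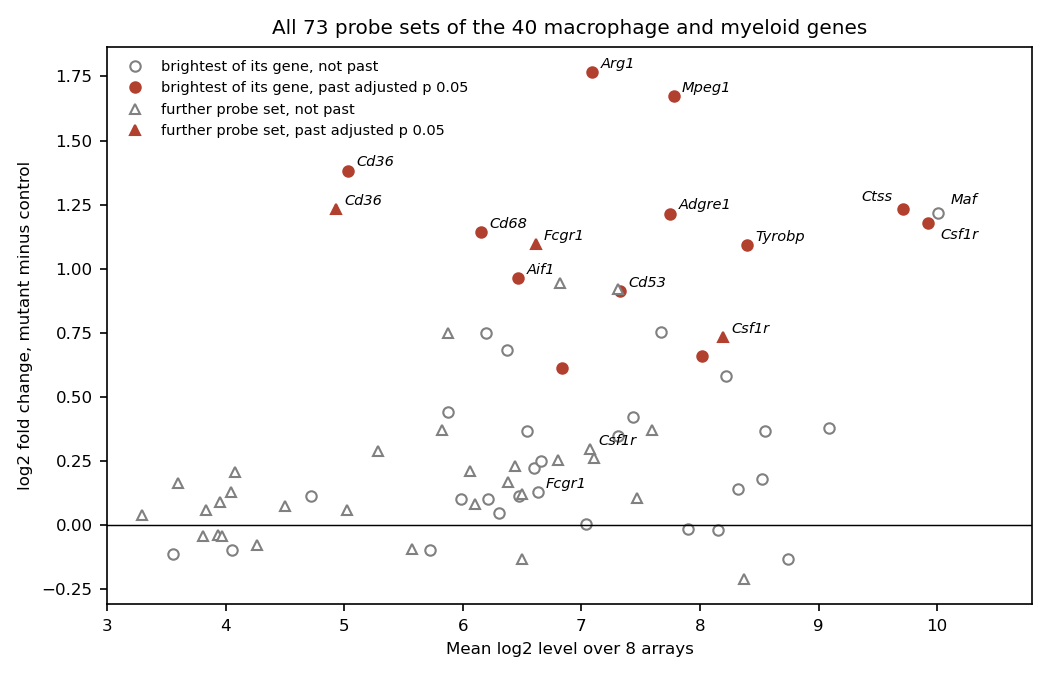
Mean log2 level over 8 arrays against log2 fold change, mutant minus control, for all 73 probe sets of the 40 genes; circles are the brightest of a gene, triangles the further ones, and filled symbols passed an adjusted p of 0.05 over all probe sets. Changes near 0 occur among dim and bright sets, and the 2 labelled Fcgr1 symbols show nearly equal levels with changes of 0.13 and 1.10.

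Genes that rose were found among bright and dim genes. Of 16 genes above the median gene, 6 rose, and of 24 at or below it, 7 rose, where 0.813% and 0.857% of all genes at those levels did. Of the 33 further probe sets of these genes, 28 differed in the same direction as the brightest, 5 in the opposite direction, and 3 passed over all probe sets (one each of Csf1r, Fcgr1 and Cd36). Itgam, Cd163 and Timd4 were the dimmest of the 40. RMA understates differences of dim sets, but whether it hid a change in these genes was not tested. Cd36, the next dimmest, read 4.09 to 4.52 in controls, against 4.53 to 4.75 for Timd4 in controls, and rose by 1.38.

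Other lists place the 40 genes among blood and tissue cells. All 7 measured C1q and Ms4a genes rose, with a median of 1.52. Ms4a6d, which encodes a four-span membrane protein of macrophages, was at 7.20 ± 0.379 in mutants and 5.32 ± 0.144 in controls, and the complement gene C1qb at 9.18 ± 0.325 in mutants and 7.64 ± 0.122 in controls (SD, n = 4 each). Ms4a7 rose by 1.72 and C1qc by 1.52. A broader list of 36 further macrophage genes did less, of which 5 rose and 1 fell, at a median of 0.12. Evi2a (0.95), Gpr34, a lysophospholipid receptor gene of microglia (0.90), and Clec7a, which encodes the beta-glucan receptor dectin-1 (0.74), rose. Tmem119, a microglial marker that bone-forming cells also express, fell to 8.88 ± 0.18 in mutants, against 9.68 ± 0.0378 in controls. The fractalkine receptor gene Cx3cr1 did not pass (0.32, adjusted p = 0.297).

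Of 17 lysosomal genes used by many cell types, the cathepsin genes Ctsh (0.80), Ctsb (0.38) and Ctsd (0.37) rose, and 14 did not pass. No gene passed among 12 inflammatory cytokine and enzyme genes, 11 of alternative activation, 18 of engulfment and 14 of the CSF1 axis and blood progenitors. At an unadjusted p under 0.05 in limma these lists held 1, 2, 2 and 2 higher genes and 0, 3, 1 and 0 lower genes, where 4.52% of all genes were higher and 8.95% lower. The genes with the smallest p in them were Ifnb1 (0.24, adjusted p = 0.165) and Ifng (-0.09, adjusted p = 0.647), Clec10a (0.37, adjusted p = 0.0892) and Socs1 (-0.30, adjusted p = 0.121), Axl (-0.50, adjusted p = 0.208) and Abca1 (0.44, adjusted p = 0.223), and Csf3r (0.44, adjusted p = 0.243) and Cebpa (0.20, adjusted p = 0.318).

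**Figure D5:**
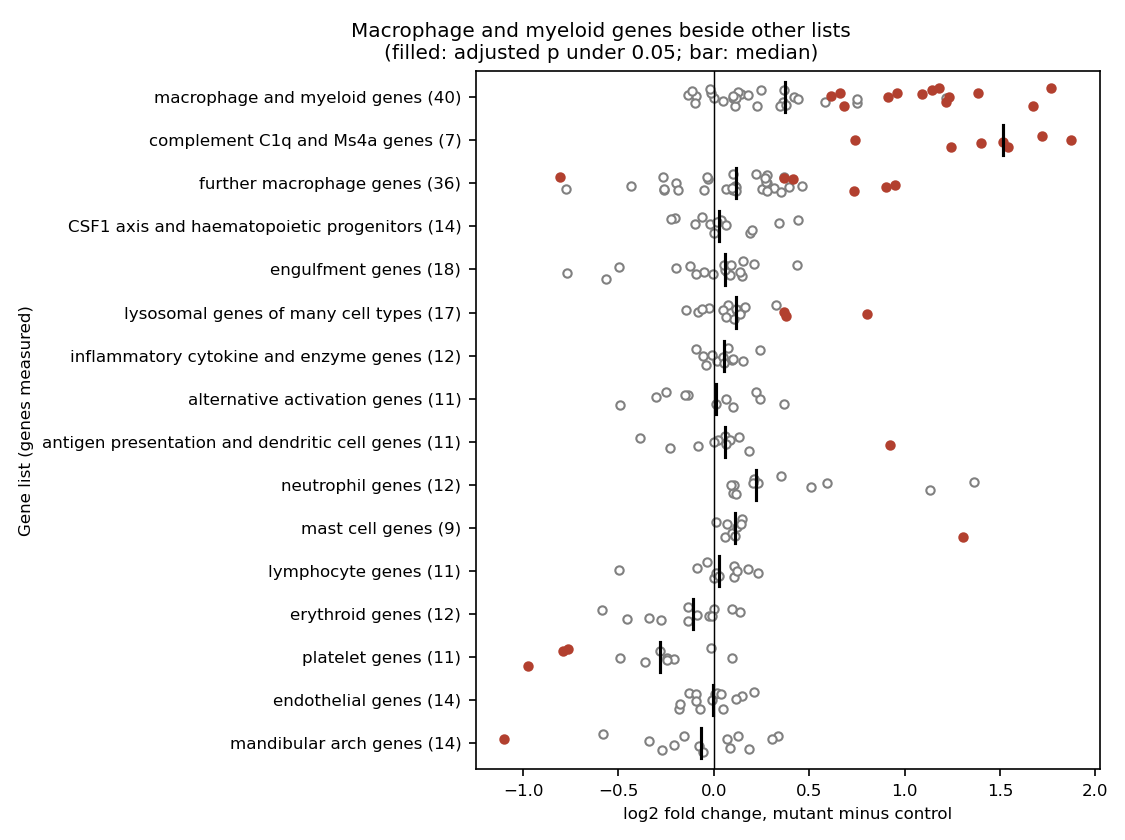
Log2 fold change, mutant minus control, of every measured gene in the 40 and in 15 other lists, with filled red points for genes past the adjusted threshold and a bar at each list's median. The C1q and Ms4a list and the 40 genes lie furthest to the right, at medians of 1.52 and 0.37, and the platelet list furthest to the left, at -0.28.

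Markers of other leukocytes and of blood and vessels had smaller list medians, and their part in the results above was not tested. Among 12 neutrophil genes all had a log2 fold change above 0, but 0 passed (limma; 4 higher and 0 lower at an unadjusted p under 0.05), and the mean over the list was 6.20 to 6.57 in mutants and 5.73 to 6.29 in controls. Of 9 mast cell genes 1 rose, the GATA factor gene Gata2 (1.31 ± 0.109), which is not specific to mast cells. Their mean was 5.63 to 6.02 in mutants and 5.47 to 5.63 in controls. Of 11 antigen presentation and dendritic cell genes 1 rose, Zbtb46 (0.92 ± 0.128), a factor of dendritic cells and endothelium, at list means of 6.15 to 6.40 in mutants and 6.14 to 6.27 in controls. Lymphocyte genes, 11 in number, had 0 that passed (0 higher and 1 lower at an unadjusted p under 0.05; Rag1 -0.50 and Il7r 0.18) and means of 5.62 to 5.90 in mutants and 5.62 to 5.79 in controls.

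Platelet genes went the other way: 3 of 11 fell, 0 rose, and their mean was 7.51 to 7.85 in mutants and 7.87 to 8.24 in controls. The chemokine gene Ppbp (-0.97), the tubulin gene Tubb1 (-0.79) and Pf4 (-0.77) were the falls. Cd36 and Fcer1g, which platelets share, rose on the same arrays, and F13a1, also shared, did not pass. Of 12 erythroid genes 0 passed (0 higher and 4 lower at an unadjusted p under 0.05; Nfe2 -0.45 and Epb42 -0.59), with means of 9.44 to 9.63 in mutants and 9.57 to 9.79 in controls. Of 14 endothelial genes 0 passed (1 higher and 0 lower at an unadjusted p under 0.05; Cldn5 0.21 and Flt1 -0.13), with means of 8.17 to 8.46 in mutants and 8.33 to 8.35 in controls. In the list of 14 mandibular arch genes Pitx1 fell (-1.10 ± 0.118) and 13 did not pass. At an unadjusted p under 0.05, 1 of the 14 was higher and 5 were lower, and in 5 every mutant array read below every control array, against 7.02% of all genes.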

How the data were processed

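The authors deposited log2 expression values per probe set for 8 Affymetrix arrays, made with RMA per the submitters' processing notes; no version is given in those notes. RMA subtracts background, brings the probes of all arrays to one distribution and reports 1 value for the probes of a set. It understates differences of dim sets. The deposited values per probe set still differed in spread, with an SD of 2.42 in mutant 3 against 2.52 to 2.56 on the others. Precision is limited by having 4 arrays a group. Detection calls and scan dates were not used here. Of 45101 probe sets, the platform annotation gave 1 symbol to 34958, several to 932 and none to 9211, and 34754 matched RefSeq by Entrez identifier, with 0 renamed. Each of 18194 genes was its brightest probe set.

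Mutants and controls were compared with lmFit and eBayes in limma 3.58.1 (R 4.3.3), two-sided, without covariates, with Benjamini-Hochberg adjustment across the 18194 genes. Adjusted p-values are from that fit unless another is named. "Rose" and "fell" are used at an adjusted p under 0.05. The genes and lists were chosen with earlier results of these data known. Named were all 40 genes, Tgfbr1, and from every other list up to 4 genes past the threshold by size, or the 2 with the smallest p where none passed. Csf1, Il34, Cx3cr1, S100a8, Camp, Dlx5 and Hand2 were chosen after their values were seen. On simulated arrays of 18194 genes with 200 changed (10 runs), 52.6% of changes of 0.5, 89.0% of 1 and 99.0% of 2 log2 units were recovered, and 5.22% of calls were false. Alternatives changed the probe set, the filter, the normalization, the variance model, array weights, the block, the threshold and the arrays used. Of 224 genes on the 15 other lists, 207 had a value, and the remaining genes are not analysed here.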

Additional observations from a re-analysis of the deposited data

Results flagged for a closer look

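Each group of 4 arrays was checked for a lone array, over 80 groups of the 40 genes. Of these groups 2 stood out, a smaller share than the 1 in 20 or so that chance alone gives. Mutant 1 was high for Cd36, at 6.25 against 5.48 to 5.59 in the other mutants, a gap of 0.856 of the group's range. Mutant 2 was high for Stab1, at 8.01 against 7.51 to 7.54 in the other mutants, a gap of 0.927 of the range. Without mutant 1, Cd36 changed by 1.21, and it passed in all 15 alternatives that measured it. Without mutant 2, Stab1 changed by 0.30 and did not pass, as over all arrays.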

How the results depend on the processing

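Of the 13 genes that rose, 10 passed at the threshold of 0.05 in every alternative that measured them, and all 13 kept their direction; Ptprc, Trem2 and Cd68 did not always pass. At a threshold of 0.01, 9 passed, with Fcer1g also lost. The count of genes that rose among the 40 was 13, and 10 to 19 with 1 array left out (lowest without control 2, highest without mutant 3). It was 24 with array weights, which gave mutant 3 a weight of 0.108 against 0.949 or more elsewhere and stopped before convergence, and 6 over genes above the median level, which kept 16 of the 40. Over those genes 8 did not overlap, against 19, and 11 differed from Csf1r in change, against 31. With 1 array left out, 0 fell in each case, 19 to 24 did not overlap and 29 to 31 differed from Csf1r. Set against the third Csf1r probe set, chosen after seeing the data, 19 differed. The count over all genes was 390, but 620 with quantile normalization, 1356 with array weights, 82 at a threshold of 0.01, 664 at 0.1 and 104 to 618 with 1 array left out. Of the 27 genes that did not pass, 12 passed in at least 1 alternative, all upward. At a threshold of 0.05 each of those passed in at most 4 of its 15 or 16 alternatives. The labels do not say whether the same replicate numbers pair the samples. Between same-numbered arrays deviations correlated at -0.12 to 0.41, highest for mutant 4 with control 4. Of the 4 mutants, 1 correlated best with its own number. So few correlations cannot settle whether samples were paired. With the replicate block 12 of the 40 rose, Ptprc being lost, and 293 genes passed in all. Intervals of dim genes are limited by signal over background.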

Other observations

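Among neutrophil genes, S100a8 and S100a9, which encode the subunits of calprotectin, varied most between control arrays. S100a9 read 8.42, 7.97, 7.35 and 7.54 in mutants 1 to 4, against 5.56, 6.78, 8.04 and 5.46 in controls 1 to 4. S100a8 read 9.28, 8.67, 8.12 and 8.56 in mutants 1 to 4, against 7.10, 7.72, 8.99 and 6.30 in controls 1 to 4. Control 3 was the highest control for both, within the range of the mutants, and neither gene passed (limma adjusted p = 0.279 for S100a9 and 0.354 for S100a8). Control 3 was also the highest control for the antimicrobial granule genes Camp, at 7.15, and Ngp, at 6.01. On the 13 macrophage and myeloid genes that rose, control 3 was the highest control for 1, and over all genes for 20.5%.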
